A study of Mus musculus with 4 samples.

Results

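Serpina3g, Serpina3f, Serpinb1a and Ctla2a encode protease inhibitors, and they are 4 of the 13742 genes in a table of single haematopoietic stem cells (HSCs). They were picked by name after their levels, shares of cells and correlations in these same libraries were known, so all values below are descriptions and carry no test. The cells came from bone marrow of wild-type mice aged 8 weeks. The sort took cells without lineage markers or CD48 that carried Kit, Sca-1, CD150 and EPCR (CD201), called ESLAM SK, from a CD27-negative and a CD27-positive gate. The study asked how those gates differ. The labels of all 4 libraries name both gates and no source used here gives the gate of a single cell, so the libraries form 1 group (n = 4) and no comparison between gates was made. Nothing in the labels says whether the libraries came from separate mice, and the spread between them may be technical.

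Serpins are a superfamily of inhibitors that trap their target protease: the protease cleaves an exposed loop, the serpin folds that loop into itself, and both proteins are left locked together. Most serpins act on serine proteases and some also on cysteine proteases such as the cathepsins of the lysosome. The CTLA-2 proteins are small and built differently. They resemble the propeptide that keeps cathepsin L inactive, and they block cathepsin L-like cysteine proteases. In mouse blood cells Serpina3g (also called Spi2A) is known as an intracellular serpin induced by interferon and NF-kB signals that limits damage from leaked cathepsins. Serpinb1a inhibits the neutrophil granule proteases elastase, proteinase-3 and cathepsin G.

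The table held 297 cells, of which 292 had at least 10000 counts and 1000 detected genes and were kept: 74, 75, 71 and 72 in libraries 1 to 4. Their counts summed to between 5250569 and 11207442 per library. The kept cell nearest the count minimum had 10653 counts, and the 5 cells left out had between 4199 and 8015. No 2 cells had identical counts. All 12 HSC markers on a list, among them Procr, Kit and Mecom, had counts and summed to between 3906 and 4664 CPM (counts per 1000000) per library. Of 8 mast cell markers only Cpa3 had a row, with a count in 1 cell. Among 10 neutrophil markers 9 had rows and summed to between 569.7 and 649.5 CPM, of which Prtn3 made up 491 CPM on average; Elane had a count in 1 cell, Ctsg in 2 and Mpo in 7. T and NK cell markers, with rows for 6 of 12, summed to between 28.9 and 109 CPM, nearly all of it Klrb1c, while Cd3e had a count in 1 cell and Cd3d and Cd4 in 3 each, and 10 endothelial markers, several of which HSCs also express, to between 452 and 703 CPM. Runs of consecutively numbered cells, 8 in library 2 and 7 in library 4, stood apart from the other cells when the data were inspected. For some results values with and without them follow, and results given only with them can also move. The same cell numbers recur in all libraries as names only, and no barcode sequences were used here.

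Serpina3f and Serpina3g are neighbours. On chromosome 12 of GRCm38 (GENCODE M21), Serpina3f (ENSMUSG00000066363.12) spans 104214544 to 104221129 and Serpina3g (ENSMUSG00000041481.16) spans 104236245 to 104241939, both on the plus strand and 15115 bases apart. Serpinb1a (ENSMUSG00000044734.16) lies on chromosome 13 from 32842092 to 32851185 and Ctla2a (ENSMUSG00000044258.10) on the same chromosome from 60934155 to 60936625, both on the minus strand. All 4 are annotated as protein coding. Since paralogs can share reads, every 100-base stretch of each transcript was looked up in all other transcripts. In Serpina3g 79 of 1704 stretches and in Serpina3f 77 of 2149 also occurred elsewhere, mostly in other Serpina3 genes, but none of the 501 in the last 600 bases of either transcript did, and the protocol enriched 3′ ends. Serpinb1a shared none of 1819. Ctla2a shared 249 of 1274, of which 239 with Gm49391, an annotated gene that overlaps it and has no row in the table, and 10 of the 501 in its last 600 bases. Its paralog Ctla2b shared 961 of 995 with Gm49391, so reads of Ctla2b can be ambiguous and its count in only 6 cells is no measure of its expression.

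Serpina3g transcript was found in nearly every cell of every library. Its level was 1222, 1268, 1073 and 891 CPM in libraries 1 to 4, a mean of 1113 ± 170.2 (SD, n = 4), and 72 of 74, 73 of 75, 68 of 71 and 69 of 72 cells held a count of it. Library 4 was lowest and library 2 highest. The 8 cells of the run in library 2 stood at 3111 CPM and its other 67 at 1152, below library 1, and the 7 cells of the run in library 4 at 1669.6 and its other 65 at 846. Without both runs the mean was 1073 CPM. Libraries 1 and 2 had overlapping 95% exact Poisson intervals, 1197 to 1247 and 1244 to 1293 CPM, and the other neighbours in that order did not overlap; these intervals cover counting error only. Single cells differed far more than libraries: the tenth percentile of kept cells was 46.4 CPM, the median 625 and the ninetieth percentile 2804, with a highest cell at 8211 CPM in library 1. The 10 highest cells held 22.6% of all Serpina3g counts.

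Serpina3f, whose product is a close relative of Serpina3g, was present in a minority of cells and, of the 4 genes, varied most between libraries. Its level was 107, 122, 64.4 and 35.6 CPM, a mean of 82.2 ± 39.5 (SD, n = 4), which is a coefficient of variation of 48.1% against 15.3% for Serpina3g, 27.3% for Serpinb1a and 14.3% for Ctla2a. Its transcript was found in 27 of 74, 23 of 75, 14 of 71 and 11 of 72 cells, or 36.5% (95% exact binomial interval 25.6 to 48.5), 30.7% (20.5 to 42.4), 19.7% (11.2 to 30.9) and 15.3% (7.88 to 25.7). Levels and shares were both higher in libraries 1 and 2 than in 3 and 4, although the intervals of neighbouring shares overlap. The distribution was uneven: 25 of the 75 cells had exactly 1 count, the highest cell reached 2737 CPM, and the 10 cells with the most counts held 56.7% of the total.

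Serpinb1a was found in 11 of 74, 7 of 75, 8 of 71 and 12 of 72 cells, 38 in all. Its level was 32.5, 23.7, 36.2 and 46.7 CPM, a mean of 34.8 ± 9.49 (SD, n = 4), highest in library 4 and lowest in library 2. The counting intervals of libraries 1 and 3 overlap, 28.5 to 36.9 and 31.2 to 41.7 CPM. Most cells had none, and the 10 cells with the most counts held 67.5% of the total. In library 2 the 8 cells of the run stood at 223 CPM and the other 67 at 11.2 CPM, so 2 cells of that run set much of that library's level. In library 4 the 7 cells of the run stood at 123 CPM and the other 65 at 42.3. Without both runs the mean was 30.6 CPM.

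Ctla2a was found in 56 of 74, 63 of 75, 57 of 71 and 63 of 72 cells. Its level was 582, 591, 726 and 521 CPM, a mean of 605 ± 86.5 (SD, n = 4), highest in library 3 and lowest in library 4. Libraries 1 and 2 had overlapping counting intervals, 564 to 599 and 575 to 608 CPM. In library 2 the 8 cells of the run stood at 1619 CPM and the other 67 at 527, below the interval of library 1; in library 4 the run stood at 459 CPM and the other 65 cells at 525. Without both runs the mean was 589.9 CPM. Among all kept cells the median was 293 CPM, the ninetieth percentile 1551 and the highest 5125 CPM, and 34 of 239 positive cells had exactly 1 count. The libraries hold no cell type known to lack these genes, so a background share of cells was not measured. With at least 10 counts asked for, the mean share was 85.9% for Serpina3g, 13.0% for Serpina3f, 8.24% for Serpinb1a and 61.4% for Ctla2a.

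**Figure D1:**
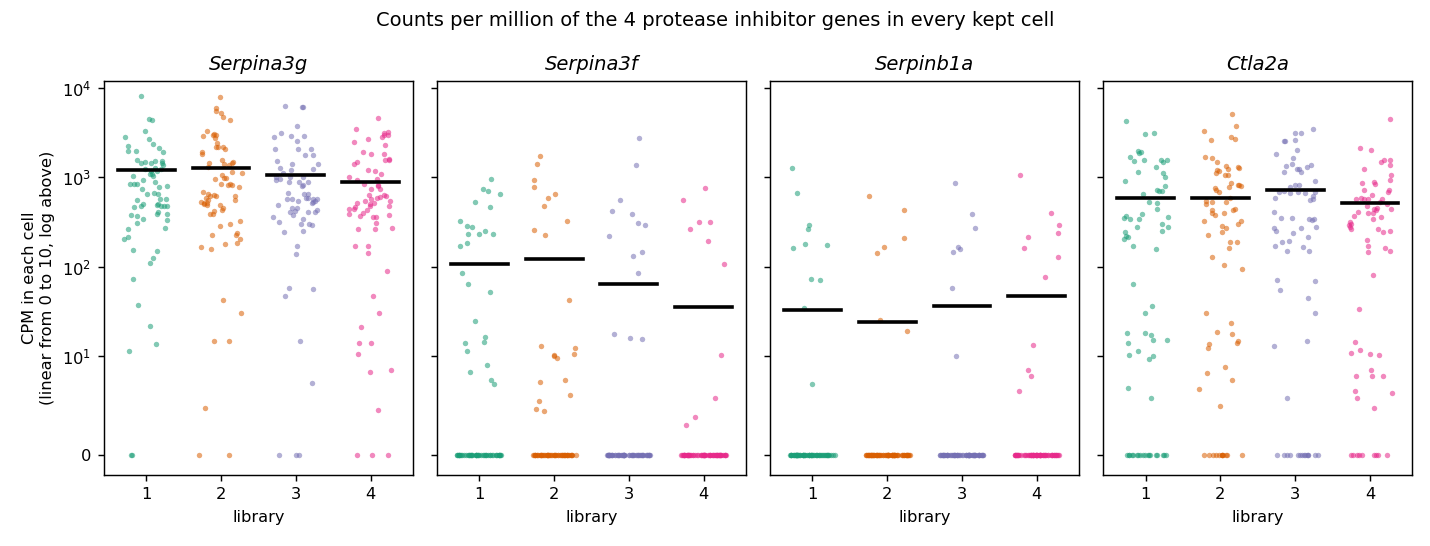
Level of each gene in every kept cell, in counts per 1000000 (CPM; vertical axis linear from 0 to 10 and logarithmic above), by library (horizontal axis). Points are cells and black lines are the CPM of the summed counts of a library; Serpina3g lies above 0 in 282 of 292 cells and Serpinb1a in 38.

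**Figure D2:**
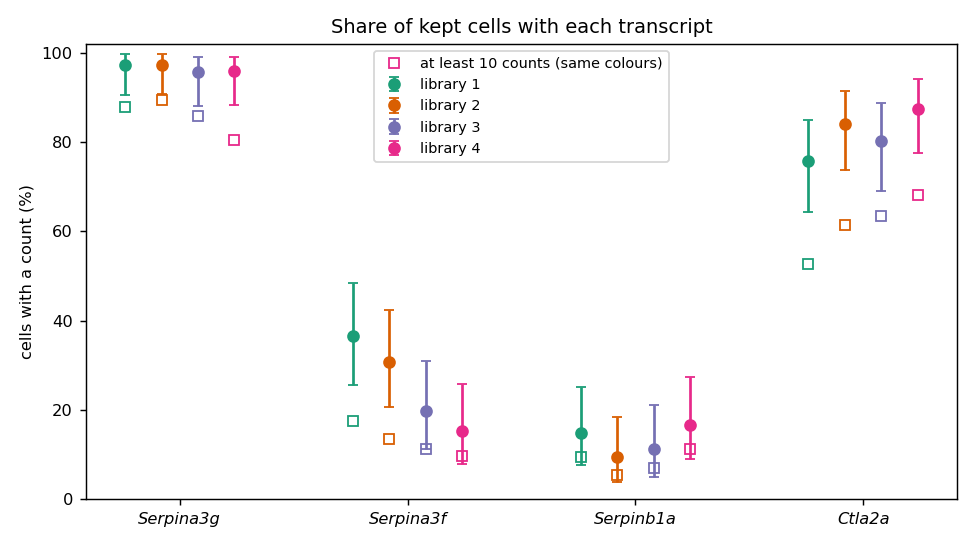
Share of kept cells (%) with at least 1 count (filled points, bars are 95% exact binomial intervals for counting error) and with at least 10 counts (open squares) of each gene in libraries 1 to 4 (colours). Serpina3f runs between 15.3% and 36.5% of cells and Serpina3g between 95.8% and 97.3%.

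To see which of these inhibitors occur in the same cells, each cell was thinned to 30000 counts, which left 276 cells (72, 70, 64 and 70). All correlations below are Spearman rho across the cells of 1 library, averaged over 4 libraries. Cells of a library share its preparation, and counts of a gene found in few cells hold many ties. The most frequent combination was Serpina3g with Ctla2a and neither of the others, in 117 cells (42.4%), followed by Serpina3g alone in 63 (22.8%). Serpina3g, Serpina3f and Ctla2a occurred together in 28 cells, Serpina3g, Serpinb1a and Ctla2a in 21, and Serpina3g with Serpina3f only in 20. All 4 transcripts met in 3 cells, and 5 cells had none.

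The Serpina3 neighbours went together in every library. All 52 cells with a Serpina3f count also had Serpina3g, as did 203 of 224 cells without Serpina3f. Cells with Serpina3f averaged 1783, 2298, 2567 and 1938 CPM of Serpina3g in libraries 1 to 4, and cells without it 842, 1058, 772 and 819 CPM. The first set of values lies above the second without overlap, and the difference was 1.29 ± 0.30 on the log2 scale (SD, n = 4). The correlation was 0.254, 0.418, 0.283 and 0.222, a mean of 0.294 ± 0.0861, and this was the highest of all 4539 genes examined for Serpina3f. Without the runs of consecutive cells the rho was 0.312. Of the 10 cells with the most Serpina3g, 7 had Serpina3f and 0 had Serpinb1a; 3 of those 10 lie in the runs.

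The region before the start of these neighbouring genes is similar in sequence. The stretches below are from RefSeq on GRCm38.p6, plus strand, and are shown because they are the part of the RefSeq promoter windows (250 bases before to 50 after the start) that aligns between both genes, with 119 of 147 aligned columns identical (81.0%). The Serpina3g stretch is chr12:104235984-104236129 and the Serpina3f stretch chr12:104214294-104214438. Capitals mark matches to 2 motifs: a STAT-type GAS motif, TTCNNNGAA, and a kB motif, GGGNNNTTC.
Serpina3g: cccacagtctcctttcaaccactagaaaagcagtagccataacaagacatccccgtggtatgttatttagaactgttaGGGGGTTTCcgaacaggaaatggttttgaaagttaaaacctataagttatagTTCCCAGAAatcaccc
Serpina3f: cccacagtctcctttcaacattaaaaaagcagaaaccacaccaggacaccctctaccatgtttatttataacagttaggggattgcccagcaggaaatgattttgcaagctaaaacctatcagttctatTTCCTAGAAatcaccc
The GAS letters begin 33 bases before the RefSeq start of Serpina3g and 121 bases before that of Serpina3f (210 in its other RefSeq window), and they occur in 8.30% of all 32851 mouse promoter windows searched on both strands. The kB letters begin 85 bases before the start of Serpina3g, occur in 14.0% of windows, and were not in either Serpina3f window. The letters of an interferon-stimulated motif, GAAANNGAA, found in 8.56% of windows, were not in the Serpina3g window; in Serpina3f they occur once, on the minus strand, 127 bases before the start, where they overlap the GAS letters. The GAS and kB matches do not overlap. These are matches of letters and not measured binding sites.

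Serpinb1a and Ctla2a also occurred together. In thinned cells, 25 of 28 with Serpinb1a had Ctla2a, against 160 of 248 without Serpinb1a. Cells with Serpinb1a averaged 767, 2247, 917 and 833 CPM of Ctla2a and cells without it 525, 508, 637 and 426 CPM. The value of library 2 rests on 5 cells, 2 of them in the run; without the run it was 1167 CPM in 3 cells, against 498 CPM. The correlation was 0.238, 0.306, 0.206 and 0.213, a mean of 0.241 ± 0.0458, and without both runs 0.213. Of the 10 cells with the most Serpinb1a, 9 had Ctla2a and none had Serpina3f, and 4 of those 10 lie in the runs.

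For Ctla2a, 1 stretch of 100 bases from RefSeq (GRCm38.p6, minus strand, chr13:60936723-60936822) is shown for its matches to the same GAS motif and to an AP-1 motif, TGANTCA, both in capitals.
Ctla2a: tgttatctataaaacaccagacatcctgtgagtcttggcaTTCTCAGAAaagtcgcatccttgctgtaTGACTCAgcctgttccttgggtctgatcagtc
The GAS letters begin 157 and the AP-1 letters 129 bases before the RefSeq start (216 and 188 in the other RefSeq window), and the AP-1 letters occur in 7.81% of promoter windows. Neither the kB nor the interferon-stimulated letters were in these windows. Serpinb1a is named only.

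Serpina3g ran opposite to Ctla2a. The correlation was -0.102, -0.213, -0.244 and -0.128, a mean of -0.172 ± 0.0675, negative in all 4 libraries. Cells with Ctla2a averaged 976, 1277, 982 and 832 CPM of Serpina3g and cells without it 1272, 1413, 1282 and 1162 CPM. These means were lower with Ctla2a in each library. Medians of Serpina3g were lower with Ctla2a in libraries 2 to 4 only. In library 1 the median was 800 CPM with Ctla2a and 633 CPM without. Between Serpina3g and Serpinb1a rho was also negative in each library, with a mean of -0.130 ± 0.0959; without library 2 the mean was -0.0841, and the Pearson correlation of log2(CPM + 10) was -0.0741. Serpina3f showed no one direction with Ctla2a (-0.208 to 0.148) or with Serpinb1a (-0.143 to 0.0482), and Serpina3f and Serpinb1a met in 4 cells. These pairs describe ranks only: 169 of the 185 cells with Ctla2a also had a Serpina3g count.

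**Figure D3:**
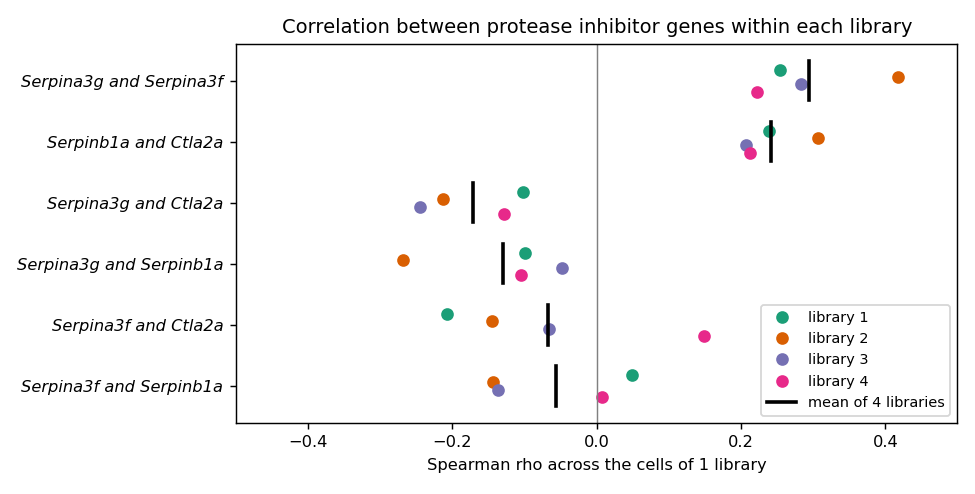
Spearman rho (horizontal axis) between each pair of genes (vertical axis) across the thinned cells of each library (coloured points), with the mean of 4 libraries as a black bar. Serpina3g with Serpina3f and Serpinb1a with Ctla2a lie above 0 in every library, and Serpina3g with Ctla2a and with Serpinb1a lie below 0. Serpina3f with Ctla2a and with Serpinb1a straddle 0.

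Each inhibitor was then set against the 4539 genes with a count in at least 20% of thinned cells. Having the same sign in 4 of 4 libraries was used as a sorting rule. Of all genes, 6.06% were positive and 7.76% negative in every library with Serpina3g, 6.08% and 7.89% with Serpina3f, 10.4% and 5.46% with Serpinb1a, and 13.7% and 4.19% with Ctla2a. The median rho over all genes was -0.00755 with Serpina3g, -0.00458 with Serpina3f, 0.0182 with Serpinb1a and 0.0278 with Ctla2a. The genes named are the 6 highest and 4 lowest by mean rho that kept 1 sign. Where thinned cells are split by a count of a named gene, the direction repeats that choice in part. In a single library no rho of a named gene exceeded 0.532.

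With Serpina3g, interferon-inducible genes were among the highest. Slfn2, an interferon-inducible schlafen gene, had a mean rho of 0.282 ± 0.0568 (SD, n = 4), with 0.222 to 0.359 over the libraries. Tgtp2, an interferon-inducible GTPase, had 0.263 ± 0.211, with 0.452 and 0.423 in libraries 1 and 2 and 0.162 and 0.0137 in libraries 3 and 4. Ifitm1 and Ifitm3, interferon-induced membrane proteins found in all 292 cells, had 0.259 ± 0.0440 and 0.223 ± 0.129. The others were Itfg2 at 0.238 and Nfkbia, the NF-kB inhibitor, at 0.222. Without the runs of consecutive cells Ifitm1 was at 0.213. The lowest were Cmtm7 at -0.249, Ramp1, a partner of the calcitonin receptor-like receptor, at -0.237, Akip1 at -0.236 and Dusp6, a phosphatase of ERK, at -0.221. Summed markers of some other cell types moved with Serpina3g as well. The summed T and NK cell markers, nearly all Klrb1c, had a mean rho of 0.268 (0.166 to 0.446 over libraries) with Serpina3g. With Serpina3f the rho of this sum was 0.224 (0.0215 to 0.362). On that list 0 genes were in at least 20% of cells. The summed endothelial markers had a mean rho of 0.187 (0.0342 to 0.271) with Serpina3g. Of 5 endothelial markers in at least 20% of cells, Emcn, Egfl7 and Vwf were positive in every library with Serpina3g. The share over all genes was 6.06%. Without the runs of consecutive cells 1 of the 5 endothelial markers was positive in every library. Their median rho was 0.0426, against 0.0947 with the runs. The defining markers Cdh5 and Plvap had a count in 2 cells each. The part of the T and NK cell and endothelial markers in the Serpina3g and Serpina3f results was not tested.

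Cells with a Tgtp2 count averaged 1283, 1568, 1162 and 1026 CPM of Serpina3g, and cells without Tgtp2 602, 617, 662 and 635 CPM. Cells with Iigp1, another interferon-inducible GTPase, averaged 1382, 1885, 1427 and 1107 CPM of Serpina3g, and cells without Iigp1 916, 971, 779 and 820 CPM. These means were higher with Iigp1 in 4 of 4 libraries. Medians were higher with either gene in libraries 1 to 3 only. In library 4 the median was 500 CPM with Iigp1 and 600 without, and 567 CPM both with and without Tgtp2. Of 33 genes on an interferon response list, 20 were in at least 20% of cells; with Serpina3g 6 were positive in every library (Irf1, Iigp1, Ifi47, Igtp, Oasl2 and Psmb9), 0 were negative, and the median rho was 0.0987. Without the runs these counts were also 6 and 0, and the median was 0.0841. Of all genes, 6.06% were positive and 7.76% negative in every library with Serpina3g.

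After Serpina3g, the highest genes with Serpina3f were Cd74, the invariant chain of MHC class II, at 0.278 ± 0.120, Ogfr at 0.254, Ltb, the lymphotoxin beta gene, at 0.238, B2m, the light chain of MHC class I, at 0.227 (0.0804 with counts as deposited) and Birc3, an NF-kB target that blocks cell death, at 0.225. Cells with Cd74 held Serpina3f in 14 of 35, 13 of 44, 8 of 32 and 5 of 35 cases, and cells without Cd74 in 6 of 37, 2 of 26, 2 of 32 and 2 of 35. On the NF-kB and cytokine list, 5 of 8 genes in at least 20% of cells were positive with Serpina3f in every library (Nfkbia, Nfkbiz, Ltb, Birc3 and Stat3) and 0 negative, with a median rho of 0.135. On the MHC list 5 of 14 were positive (B2m, H2-K1, H2-D1, Cd74 and H2-Aa) and 0 negative, with a median of 0.110. With Serpina3g 6 of the 14 MHC genes were positive (B2m, H2-T23, Tapbp, Cd74, H2-Aa and H2-DMb1) and H2-DMa negative, with a median of 0.0762. Without the runs 4 of the 14 MHC genes were positive with Serpina3g and 6 with Serpina3f. Of the 8 NF-kB genes 3 were positive with Serpina3g (Nfkbia, Ltb and Birc3) and Nfkb1 negative, with a median of -0.00346. With Serpina3f, on the interferon list 6 of 20 were positive and Ifi27 was negative. The shares over all genes were 6.06% positive and 7.76% negative with Serpina3g, and 6.08% and 7.89% with Serpina3f. The lowest genes with Serpina3f were Dctn4 at -0.208, Ndufb4 at -0.204, Psmd9 at -0.190 and Rpl21 at -0.188. Of the 6 genes named as highest with Serpina3g, 5 had a positive mean rho with Serpina3f and 0 with Ctla2a.

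Serpinb1a, found in only 28 thinned cells, had its highest mean rho with Cd37 and Cd34. Cd37, a tetraspanin of lymphoid cells, had a mean rho of 0.316 ± 0.193, and Cd34, a sialomucin of progenitors, 0.311 ± 0.123. By cells, Serpinb1a was present in 22 of 108 cells with Cd34 and 6 of 168 without, and in 18 of 78 cells with Cd37 and 10 of 198 without. Without the runs the Cd37 counts were 14 of 72 and 10 of 191, the rho of Cd37 was 0.259, below 0.297 for Cd34 and 0.277 for Rasal3, and in library 4 Serpinb1a averaged 18.2 CPM in cells with Cd37 and 34.1 CPM in cells without. In libraries 2 and 3 all Serpinb1a cells had Cd34 (5 of 28 and 6 of 28 cells with Cd34, 0 of 42 and 0 of 36 without); in library 4 the counts were 5 of 25 and 4 of 45. Without the runs the Cd34 totals were 20 of 105 and 4 of 158. The other highest genes were Mrps6 at 0.262 and Mrpl27 at 0.243, both of the mitochondrial ribosome, Spcs3 at 0.257 and Rasal3 at 0.255. Without the runs Mrps6 was at 0.214, Mrpl27 at 0.193 and Spcs3 at 0.243. The lowest were Rabac1 at -0.235, Sult1a1 at -0.182, Syf2 at -0.177 and Tbc1d22a at -0.173. With so few positive cells, a rho of this size can turn on a handful of them.

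Of the 4 inhibitors Ctla2a had the most genes that were positive in every library, 621. Ramp1 led at 0.357 ± 0.118, followed by Tmsb10, an actin-binding thymosin, at 0.346 ± 0.0865, Cmtm7 at 0.312, Crip1 at 0.312, Gmfg, a regulator of branched actin, at 0.304 and Cd34 at 0.300 ± 0.0556. Ramp1 and Cmtm7 were also the lowest genes with Serpina3g. All 6 genes named as highest with Ctla2a were positive in every library with Serpinb1a, and all 6 named for Serpinb1a were positive in every library with Ctla2a. Cells with Cd34 averaged 802, 1044, 900 and 720 CPM of Ctla2a, and cells without Cd34 401, 358, 480 and 344 CPM; the ranges do not overlap. Cells with Ramp1 held Ctla2a in 131 of 163 cases and cells without Ramp1 in 54 of 113. The lowest genes were Glipr1l1 at -0.241, Pdzk1ip1 at -0.239, Hacd4 at -0.235 and Mllt3, a regulator of HSC self-renewal, at -0.228. Cells with Mllt3 averaged 528 ± 84.0 CPM of Ctla2a and cells without it 985 ± 76.7 (SD, n = 4), but only 32 cells lacked Mllt3.

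**Figure D4:**
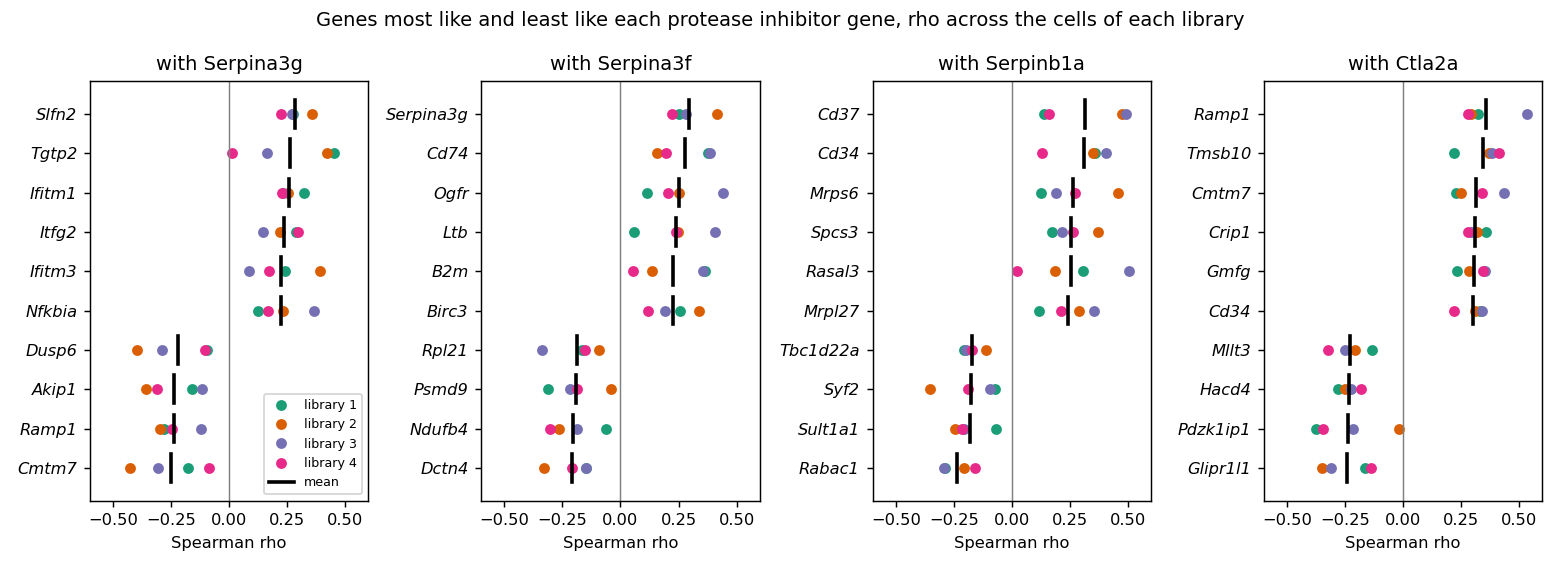
Spearman rho (horizontal axis) of each of the 4 protease inhibitor genes (panels) with the 6 genes of highest and 4 of lowest mean rho (vertical axis), across thinned cells of each library (coloured points; black bars are means). Points of 1 gene lie on 1 side of 0 because genes were listed only if they did; their SD over libraries is largest for Tgtp2 with Serpina3g.

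**Figure D5:**
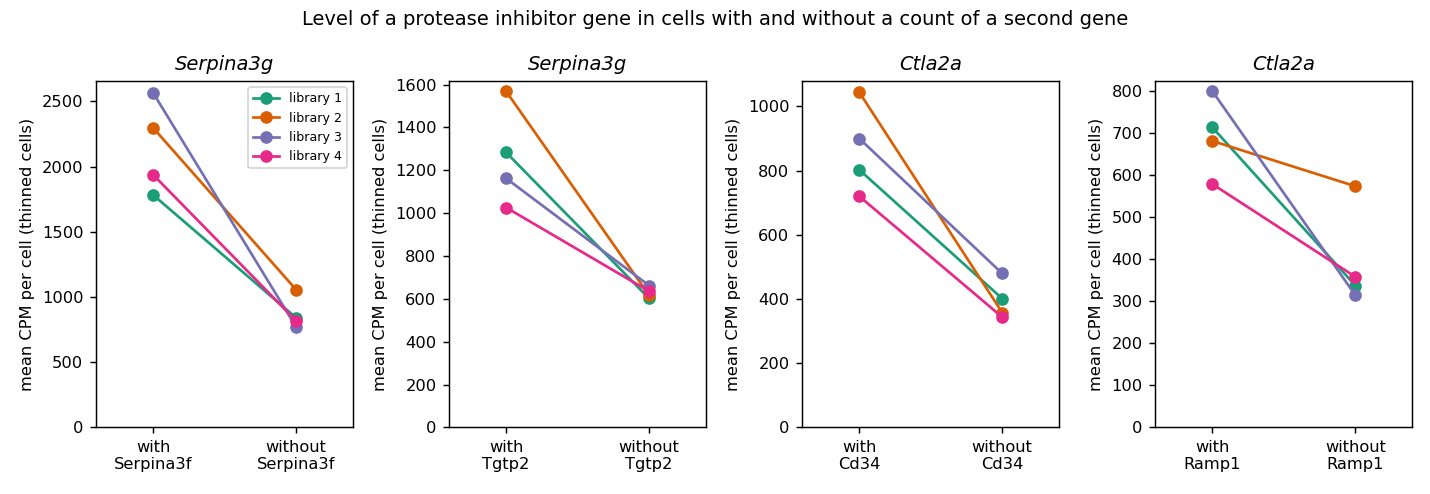
Mean CPM per thinned cell (vertical axis) of Serpina3g or Ctla2a in cells with a count of a second gene (left in each panel) and without it (right), 1 line per library. Mean Serpina3g is higher with Serpina3f and with Tgtp2, and mean Ctla2a higher with Cd34 and with Ramp1, in 4 of 4 libraries. These genes were chosen after their positive rho in the same cells was seen, so the directions repeat that choice in part.

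H2-DMa and Cd37 were positive with Ctla2a and negative with Serpina3g in every library. Of 7 lymphoid and multipotent progenitor list genes in at least 20% of cells, 4 were positive in every library with Serpinb1a and the same 4 with Ctla2a (Cd34, Cd27, H2-DMa and Cd37), with medians of 0.151 and 0.158; Bcl11a was negative with Ctla2a. With Serpina3g 3 were negative (Bcl11a, H2-DMa and Cd37) and 0 positive, with a median of -0.0804. Without the runs 3 were positive with Serpinb1a and 3 with Ctla2a, and 4 were negative with Serpina3g. On a list of HSC identity genes, 17 could be examined: with Serpina3g 4 were positive (Procr, Ctnnal1, Ifitm1 and Ifitm3) and Hlf was negative, while with Ctla2a 6 were negative (Slamf1, Mllt3, Pdzk1ip1, Cd81, Ifitm1 and Ifitm3) and Hoxa9 was positive. Without the runs 3 of the 17 were positive with Serpina3g and 5 were negative with Ctla2a. The shares over all genes were 6.06% positive and 7.76% negative with Serpina3g, 10.4% and 5.46% with Serpinb1a, and 13.7% and 4.19% with Ctla2a. Several of these lists were drawn up with earlier results in view. Ctla2a and Serpinb1a were also higher in cells with more detected genes at equal depth, with a mean rho of 0.221 (0.0123 to 0.302 over libraries) and 0.201 (0.105 to 0.262), while Serpina3g ran between -0.430 and 0.207; the part of this in the results above was not tested.

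Cd27 encodes the receptor behind the sort, and a cell's Cd27 transcript does not give its gate. Cells with a Cd27 count averaged 552, 862, 834 and 646 CPM of Ctla2a, and cells without it 552, 308, 457 and 300 CPM. These means were equal in library 1 and higher with Cd27 in the other 3. Medians of Ctla2a were higher with Cd27 in every library, 317 against 16.7 CPM in library 1. Serpinb1a was present in 21 of 148 cells with Cd27 and 7 of 128 without, but in library 1 in 4 of 36 with and 4 of 36 without. Cells with Cd27 averaged 789, 1267, 921 and 959 CPM of Serpina3g, and cells without it 1418, 1403, 1211 and 901 CPM. These means were lower with Cd27 in 3 libraries and higher in library 4. Medians of Serpina3g were lower with Cd27 in every library, 467 against 600 CPM in library 4. The rho of Serpina3g and Cd27 was 0.0479 in library 2 and negative in the others.

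Proteases were measured in the same cells, among them some that these proteins are known to inhibit. Cathepsin B (Ctsb) stood at 410 ± 7.59 CPM with a count in 256 cells, and cathepsin L (Ctsl) at 214 ± 41.3 CPM in 192 cells (SD, n = 4 libraries). Neither kept 1 sign with Serpina3g or with Ctla2a; Ctsb with Ctla2a ranged from -0.128 in library 2 to 0.462 in library 4. Of 12 cathepsins and cysteine proteases in at least 20% of cells, 0 kept 1 sign with Serpina3g (2 were positive in every library without the runs). With Serpina3f 3 were negative (Ctsl, Ctsd and Ctsa) and 0 positive. With Ctla2a Ctsf was positive and Ctso negative, and without the runs 1 was positive and 0 negative. Over all genes 6.06% were positive and 7.76% negative with Serpina3g, 6.08% and 7.89% with Serpina3f, and 13.7% and 4.19% with Ctla2a. Among the targets of Serpinb1a, proteinase-3 (Prtn3) was at 491 ± 40.8 CPM in 256 cells, with a mean rho of 0.0288 with Serpinb1a (-0.101 to 0.310). Elastase (Elane) had a count in 1 cell and cathepsin G (Ctsg) in 2.

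The symbol rule found 34 rows of protease inhibitors, 30 of them besides these 4. Those above 100 CPM were the secreted cystatin C gene Cst3 at 619 ± 48.3 CPM, Spint2, a Kunitz inhibitor of membrane serine proteases, at 397 ± 18.5, Serpinf1, which encodes the secreted factor PEDF, at 214 ± 41.8 and Cstb, the intracellular cystatin B gene, at 174 ± 22.4 (SD, n = 4). Serpinb9, an inhibitor of granzyme B, was at 92.9 ± 17.4 CPM and Serpinb6a at 90.8 ± 11.6. Of 22 serpin rows, 13 averaged below 10 CPM and 9 had a count in 1 to 3 cells. Within the Serpina3 cluster Serpina3i had a count in 1 cell, Serpina3k in 6 and Serpina3n in 2. Slpi, a secreted inhibitor of elastase, had 0 counts in 292 cells, which allows a share of cells with a count of up to 1.03% (3 divided by the number of cells, counting error only).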

How the data were processed

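Single-cell RNA was measured in 4 libraries of sorted mouse HSCs. The authors deposited unnormalized whole-number counts for each gene in each cell. Per the labels' protocols, each sorted cell received a barcode with an oligo-dT primer, cDNA went through 20 and, after pooling, 4 further cycles of PCR, and 3′ ends were enriched before paired sequencing. Per the submitters' processing notes, the tools named are HTSeq 0.9.1, HISAT2 2.1.0 and Trimmomatic 0.36, and the build is GRCm38. No source used here says whether molecular identifiers were collapsed or whether counting used strand. The median nonzero count was 18, so a count is not 1 molecule, and intervals cover counting error only.

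Column names gave the library of a cell. Cells with at least 10000 counts and 1000 genes were kept; none of them had over 20% mitochondrial counts, and no doublet caller was run. CPM of a library is its summed count over kept cells per 1000000 counts. Shares carry exact (Clopper-Pearson) 95% binomial intervals. For co-detection, splits and correlations, counts were drawn at random down to 30000 per cell (seed 1), which left out 16 shallower cells. Spearman rho was computed within each library over genes with a count in at least 20% of thinned cells. With 1 group and members chosen on these data, no test was run. The members, gene lists and comparisons were chosen with earlier results of these data known. The genes named are the members, protease inhibitors found by symbol, the 6 highest and 4 lowest genes by mean rho with each member among those of 1 sign in 4 of 4 libraries, and list genes; genes used to split cells and the promoter motifs searched were chosen after values were seen. Alternatives were TMM factors (edgeR 4.0.16) and median-of-ratios size factors (DESeq2 1.42.0) over the 4 summed libraries, other count minimums, thinning depths and seeds, Pearson correlation of log2(CPM + 10), and leaving out each library. Leaving out the runs of consecutive cells was added after seeing the data. The correlation step was tested on simulated data with Serpina3g as the gene correlated against. The other members, found in fewer cells, were not simulated in that role. Promoter sequences are RefSeq's (GRCm38.p6), found for 3 of the 4 members. Python 3.11.15, numpy 2.4.6, pandas 2.3.3 and biopython 1.88 were used. Results of 1 list gene are not reported here, and the list was counted without it.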

Additional observations from a re-analysis of the deposited data

Results flagged for a closer look

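Of 64 groups of 4 library values examined (levels, shares and correlations of the named genes), 2 had 1 library far from the others by the gap to its neighbour over the whole range; by chance about 1 in 20 would. The rho of Ctla2a with Ramp1 was 0.532 in library 3, against 0.281 to 0.321 in the other 3 libraries. The level of Wfdc17, a small whey acidic protein-type inhibitor gene, was 42.0 CPM in library 4, against 34.9 to 35.8 CPM in the others.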

How the results depend on the processing

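All 4 levels moved by less than the SD between libraries in each of 44 alternative values. No pair of members reversed its direction where the sign was the same in every library. Leaving out 1 of 4 libraries cannot move a mean by that SD or reverse a shared sign. Those values among the alternatives therefore say nothing about stability. Shares of cells depend on the minimum count. Serpina3g was in 90.1% of cells at 3 counts, 85.9% at 10 and 92.4% after thinning, Serpina3f in 15.7% at 3 and 13.0% at 10, Serpinb1a in 8.24% at 10, and Ctla2a in 66.8% at 3, 61.4% at 10 and 67.3% after thinning. With counts as deposited the rho of Serpinb1a and Ctla2a was 0.305. The numbers of genes with 1 sign in every library moved with the genes admitted: with genes in at least 10% of cells, 416 were positive and 556 negative with Serpina3g, 584 negative with Serpina3f and 309 negative with Ctla2a, and with counts as deposited 423 were positive with Serpina3f and 721 with Serpinb1a. With 1 library left out, only 3 signs must match, and positive and negative genes numbered 391 to 711 and 489 to 768 for Serpina3g, 511 to 566 and 644 to 756 for Serpina3f, 762 to 860 and 452 to 496 for Serpinb1a, and 928 to 1130 and 309 to 419 for Ctla2a. Among 234 alternative values of single named genes 3 moved by over 1 SD. Most of the 234 leave out 1 library, which cannot move a mean that far. With counts as deposited Slfn2 with Serpina3g moved to 0.216 and Tbc1d22a with Serpinb1a to -0.0564. Ifitm1 with Serpina3g moved to 0.213 without the runs of consecutive cells. Over all alternatives, between 2 and 6 of the 6 highest genes of a member were named again, and between 0 and 4 of the 4 lowest. No cell exceeded 20% mitochondrial counts, so that filter moved nothing. No paired analysis was possible because the libraries form 1 group. Depth limits all 4 shares: 25 of 75 Serpina3f, 6 of 38 Serpinb1a and 34 of 239 Ctla2a cells had exactly 1 count.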
